A study of Mus musculus with 16 samples.

Results

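The 35 genes described here encode the glucose transporters, the enzymes that take glucose to lactate, the lactate exporters, the regulators that set the rate of glycolysis and of pyruvate entry into mitochondria, and the oxygen-sensing machinery of hypoxia-inducible factor 1 (HIF-1) with some of its targets. They were listed by name, from a list drawn up with earlier results of these data known, and all 35 of 35 were found among the 39179 genes of the count files. RNA sequencing had been run on 16 samples of bone marrow-derived mast cells (BMMCs), which are mast cells grown from bone marrow in medium with stem cell factor and interleukin 3. The marrow came from male C57BL/6 mice aged 8 to 10 weeks, and the cells were used after 4 weeks of culture. The mice were wild-type (PEP+/+) or carried a mutant gene for PEP (PEP-/-), a tyrosine phosphatase of leukocytes that is encoded by Ptpn22.

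Each genotype was studied under 4 treatments with 2 replicates each. IgE BMMCs were sensitized for 3 h with immunoglobulin E, which occupies the high-affinity receptor without cross-linking it. The labels give its dose as 0.05 µg/ml, and the study's text gives a higher one. IgE DNP BMMCs were sensitized in the same way and activated for 1 h with 200 ng/ml of the antigen dinitrophenol (DNP). The study's text says that it was given as dinitrophenyl-bovine serum albumin, so DNP here means this protein conjugate. IgE DEX BMMCs received 100 nM dexamethasone (DEX), a synthetic glucocorticoid, for 8 h together with the sensitization. IgE DNP DEX BMMCs received DEX, IgE and DNP. All groups therefore carried IgE, and no group without it was analysed here. The labels call the replicates biological but do not say how many mice or cultures stood behind them, so the p-values measure the spread between these samples. In such bulk RNA, fewer cells of a type and less RNA per cell cannot be told apart.

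Glycolysis splits glucose into pyruvate in the cytosol and yields ATP faster, though less efficiently, than respiration does. Its rate is set mainly where glucose enters the cell, at hexokinase and at phosphofructokinase, whose strongest activator, fructose 2,6-bisphosphate, is made and removed by the bifunctional PFKFB enzymes. Cells that need energy quickly, activated mast cells and other leukocytes among them, can convert much of the pyruvate to lactate and export it. When oxygen is low, prolyl hydroxylases no longer mark the HIF-1 alpha subunit for destruction by the VHL ubiquitin ligase, and HIF-1 raises transcription of most of these genes by binding a short DNA element. Glucocorticoids dampen many mast cell responses and change glucose use in many tissues.

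The samples held between 8612531 and 22143526 reads counted on genes. Ptpn22, the mutated gene, had 130 to 2799 reads in the 8 PEP+/+ samples and 0 to 55 reads in the 8 PEP-/- samples. Mast cell markers summed to between 68000 and 107000 CPM (read counts scaled to library size) in every sample. They spanned 68000 to 76900 CPM with IgE alone, 76000 to 90500 with DNP, 74100 to 82700 with DEX and 84100 to 107000 with both agents. Cpa3 and Cma1 had the highest medians of this list, 41000 and 13600 CPM. Tpsab1 at 1.66 to 162 and Mcpt4 at 4.56 to 18.5 CPM were low, and Hdc spanned 62.8 to 1800 CPM. Of the other cell types, T cell, B cell, neutrophil, eosinophil and fibroblast markers summed to at most 2.35 CPM, basophil markers to 19.8 to 122 CPM and macrophage markers to 12.7 to 45.9 CPM, the last mostly from Cd68, with Csf1r at 0 to 1.05 CPM and C1qa at 0. Erythroid markers summed to 1.32 to 10.5 CPM. The megakaryocyte list summed to 1940 to 3920 CPM, which came from Itga2b, with Pf4 at 0 to 0.189 CPM and Ppbp at 0. Reads that aligned to several places and were counted on no gene made up 21.5% to 25.6% of a file's total with IgE alone, 24% to 31.5% with DNP, 25.1% to 27.7% with DEX and 30.3% to 37.8% with both agents. These marker sums and read shares moved with the treatments, and their part in the differences below was not tested.

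HIF-1 binds the core letters ACGTG, and the promoters of 4 genes that changed in several treatment comparisons are shown because they carry these letters. Other genes that changed do not all have these letters, and Pdk1 has no ACGTG in its windows. Other forms of the element were not searched, so a window without ACGTG is not shown to lack an element. The windows below are the 250 bases before the start, from the RefSeq annotation of GRCm38.p6, written 5′ to 3′ on the strand of the gene, with ACGTG and its reverse complement CACGT in capitals.
Hk2, window 1, chr6:82774455-82774704, minus strand: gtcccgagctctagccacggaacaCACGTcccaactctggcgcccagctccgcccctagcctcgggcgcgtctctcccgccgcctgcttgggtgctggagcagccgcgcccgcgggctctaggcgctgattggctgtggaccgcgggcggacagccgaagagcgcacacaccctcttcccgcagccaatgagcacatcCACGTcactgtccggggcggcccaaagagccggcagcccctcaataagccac
Slc16a3, window 1, chr11:120948817-120949066, plus strand: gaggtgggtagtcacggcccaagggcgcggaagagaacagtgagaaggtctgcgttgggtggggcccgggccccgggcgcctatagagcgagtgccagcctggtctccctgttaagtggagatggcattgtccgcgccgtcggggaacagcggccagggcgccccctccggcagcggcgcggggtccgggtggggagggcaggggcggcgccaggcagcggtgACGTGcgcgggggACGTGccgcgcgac
Pfkfb3, window 1, chr2:11553930-11554179, minus strand: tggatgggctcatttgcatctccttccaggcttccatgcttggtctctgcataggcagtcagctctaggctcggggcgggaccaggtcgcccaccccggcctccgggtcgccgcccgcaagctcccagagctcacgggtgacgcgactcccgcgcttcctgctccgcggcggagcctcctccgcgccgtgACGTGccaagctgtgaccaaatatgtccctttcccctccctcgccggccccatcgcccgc
Pfkfb3, window 2, chr2:11502091-11502340, minus strand: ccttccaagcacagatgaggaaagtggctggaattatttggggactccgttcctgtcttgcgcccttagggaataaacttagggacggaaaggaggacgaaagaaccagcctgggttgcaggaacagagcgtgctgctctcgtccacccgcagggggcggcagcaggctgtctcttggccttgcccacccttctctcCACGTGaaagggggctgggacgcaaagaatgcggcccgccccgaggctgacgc
Ero1l, window 1, chr14:45318573-45318822, minus strand: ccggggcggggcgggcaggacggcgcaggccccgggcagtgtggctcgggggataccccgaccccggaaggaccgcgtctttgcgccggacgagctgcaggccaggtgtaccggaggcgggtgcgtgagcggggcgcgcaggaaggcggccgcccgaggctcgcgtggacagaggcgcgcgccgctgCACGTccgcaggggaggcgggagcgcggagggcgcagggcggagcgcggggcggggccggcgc
In Hk2 the matches began 226 and 52 bases before the start, and in Slc16a3 27 and 14 bases before it. Pfkfb3 had 1 match 60 bases before its first start, and before its second start the letters CACGTG, an E-box that also binds MYC family proteins and in which the cores of the opposite strands overlap, began 53 bases upstream. In Ero1l, which RefSeq lists as Ero1a, the match began 63 bases before the start. Windows of 250 bases before and 50 after a start were found for 33 of the 35 genes, which have 51 such windows, some of them several for 1 gene. Of these, 29 (56.9%) held ACGTG on either strand, against 25.4% of the 12392 windows of all tested genes and 19.6% of all 32851 windows. The list includes genes named as HIF-1 targets, so a higher share can come from that choice and is not a result of these data. Windows of 1 gene can also overlap and share a match. CACGTG was in 15.7% of the windows, against 9.93% for tested genes. TGANTCA, the site of AP-1, was in 1.96% against 5.24%, and AGAACA, the letters that 1 subunit of the glucocorticoid receptor binds, in 19.6% against 12.4%. Of all 32851 windows, 7.15% held CACGTG, 7.81% TGANTCA and 19% AGAACA, the last near the 19.6% of the listed genes. A match is only a run of letters and does not show that a factor was bound.

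BMMCs held most of the transcripts of glycolysis at high level. Expressed as CPM per kilobase of exon, so that genes of different length can be compared, Aldoa (aldolase A, which cleaves fructose 1,6-bisphosphate) was highest at 394 ± 138 (mean ± SD, n = 16 samples), followed by Gapdh (glyceraldehyde 3-phosphate dehydrogenase) at 359 ± 69.9 and Ldha (lactate dehydrogenase A) at 340 ± 58.1. Ero1l, an oxidase that drives disulfide bond formation in the endoplasmic reticulum and a known HIF-1 target, came next at 279 ± 157, above Pkm (pyruvate kinase) at 265 ± 67.2 and Tpi1 (triose phosphate isomerase) at 159 ± 49.9. This order depends on the length and the treatments averaged. Per kilobase of the longest transcript, Pkm at 546 stood above Gapdh at 452 and Ero1l at 334. After IgE alone Ero1l was at 138 in PEP+/+ and 140 in PEP-/- BMMCs, below Tpi1 at 179 and 166. The levels fell without a gap through Pgk1 (phosphoglycerate kinase) at 124 ± 33, Hk1 (hexokinase 1) at 43.6, the transporter Slc2a1 at 36.7, Pfkfb3 at 25.9, Hif1a at 18.5, Slc16a3 at 9.01, Hk2 at 4.08 and Pdk1 at 1.84. The lowest were Egln3 at 0.264, Hk3 at 0.0729 and Ldhb at 0.0208 CPM per kilobase. In this order the range of each gene over the 16 samples overlapped that of its neighbour. Reads with several alignments were counted on no gene, which can lower the level of a gene with near copies. Of the 50-base windows, 68% in Pgk1, 34.4% in Pkm, 27.2% in Gapdh, 16.6% in Ldha and 13.5% in Aldoa also occur in other annotated genes. The share is 0% in Ero1l and Hk1, and its part in the order was not tested. Hk3, with 1 to 13 reads per sample, and Ldhb, with 0 to 2, were the only genes of the 35 that were not tested, because they did not pass the filter on low counts. The 17 genes of the enzymes from hexokinase to lactate dehydrogenase together took 0.61% to 1.03% of the counts.

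**Figure D1:**
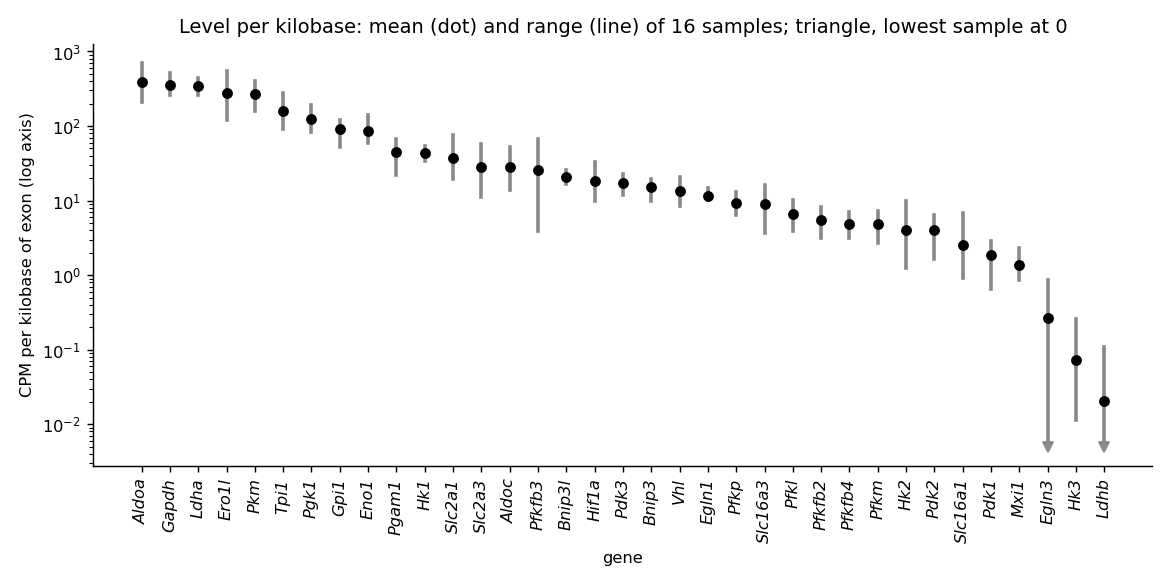
Level of each of the 35 genes in CPM per kilobase of exon on a log axis, with the mean as a dot and the range of the 16 samples as a line. Aldoa, Gapdh, Ldha, Ero1l and Pkm form the top, and Egln3, Hk3 and Ldhb the bottom, with ranges of neighbouring genes that overlap.

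Isoenzymes of a step were unequal in level, and for the PFKFB enzymes the leading gene differed between treatments. After IgE the 3 PFKFB genes had similar shares of their sum per kilobase, with Pfkfb3 at 31.2% ± 4.96 (SD, n = 4 samples), Pfkfb2 at 32.6% and Pfkfb4 at 36.1%. The share of Pfkfb3 was 59.1% ± 3.88 with DNP, 73.0% ± 5.30 with DEX and 84.3% ± 1.36 with both agents. Pfkfb3 encodes the isoform with the highest kinase over phosphatase activity, the one that most favours fructose 2,6-bisphosphate. Among hexokinases, Hk1 held 85.7% to 95.6% of the sum in every treatment, with Hk2 at 9.07% with IgE alone, 14.1% with DNP, 5.68% with DEX and 4.27% with both agents. The liver, muscle and platelet phosphofructokinases were more even, with Pfkl at 35.3%, Pfkm at 26.7% and Pfkp at 38.1% after IgE and Pfkp at 53.5% after IgE DNP DEX. Pdk3 led the pyruvate dehydrogenase kinases with 69% to 79.5%, and Aldoa the aldolases with 92% to 94.5%.

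**Figure D2:**
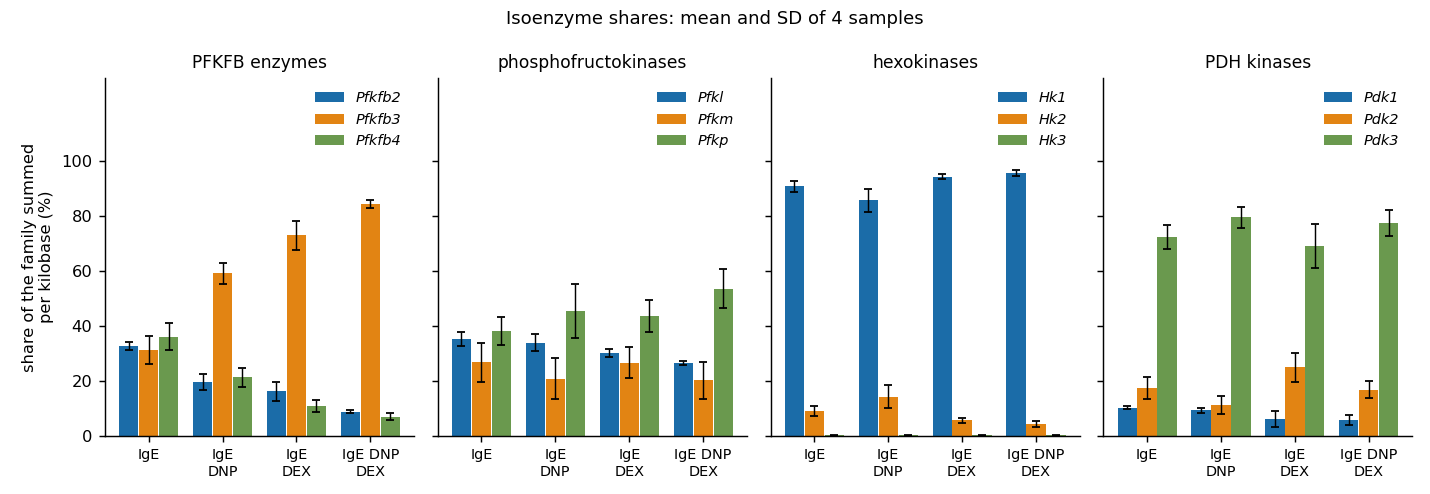
Share of each isoenzyme in the summed level per kilobase of its family, in percent, under the 4 treatments. Bars are means of 4 samples with SD; the share of Pfkfb3 stands at 31.2%, 59.1%, 73.0% and 84.3% from left to right, while Hk1 and Pdk3 lead their families in every treatment.

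The replicates of each condition formed a set titled with numbers (replicate 1) and a set titled with letters (replicate 2), and the genes of glycolysis differed between the sets. Slc2a3 was 0.95 lower on the log2 scale in the lettered set (adjusted p = 4.38e-06), Slc16a1 0.96 lower (adjusted p = 8.54e-06) and Hif1a 0.79 lower (adjusted p = 1.66e-06), while Slc2a1 was 0.64 and Pkm 0.58 higher. Of the 33 tested genes, 26 (78.8%) differed between the sets, 11 higher and 15 lower in the lettered set, against 63.6% of all 13305 tested genes. The labels do not say what separates the sets. Each comparison below is therefore given without a term for the set and with one, called the replicate block. All comparisons use edgeR's quasi-likelihood test with Benjamini-Hochberg adjustment over all tested genes, errors of log2 fold changes are standard errors, and treatments are averaged over both genotypes, so that 4 samples stand against 4.

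**Figure D3:**
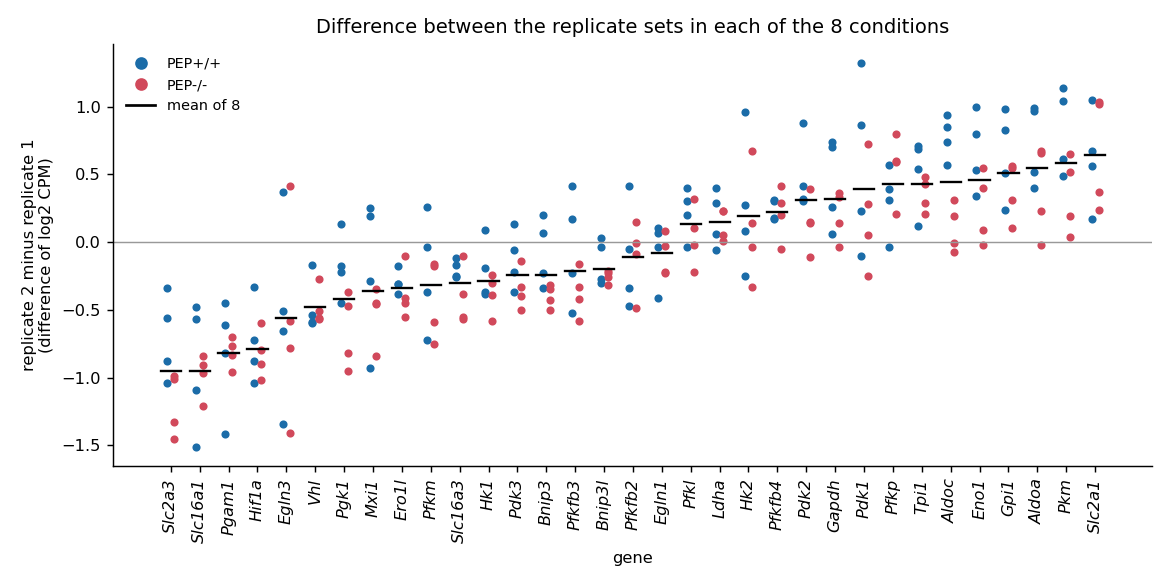
Difference of log2 CPM between replicate 2 and replicate 1 of the same condition for each tested gene, with 8 points per gene (1 per condition) and their mean as a line. The means of Slc16a1, Slc2a3, Pgam1 and Hif1a lie below 0 and those of Slc2a1, Pkm, Aldoa and Gpi1 above it.

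The first comparison asks how antigen changes these transcripts within 1 h of activation. IgE DNP BMMCs had more Ero1l, Pfkfb3, Hk2 and Slc16a3 RNA than IgE BMMCs and less Vhl and Pdk2. These 6 of 33 genes (18.2%) changed without the block, 4 up and 2 down, where 16.7% of all genes tested did, so the share was near the background. With the block 15 changed, 11 up and 4 down, against 37.9% of all genes. The median log2 fold change of the 33 genes was 0.18, with 23 above 0, and that of all genes was 0. All 6 genes moved in 1 direction in each of the 4 differences between samples of the same genotype and set. In the sentences that follow, the values of a gene are given after IgE, IgE DNP, IgE DEX and IgE DNP DEX, in this order.

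Of the genes named above that changed with DNP without the block, Ero1l had the largest increase. Ero1l stood at 807, 2930, 835 and 1840 CPM in replicate 1 of PEP+/+ BMMCs and at 649, 2360, 641 and 1620 CPM in replicate 2. Ero1l in PEP-/- BMMCs was at 847, 2720, 955 and 2080 CPM in replicate 1 and at 636, 2530, 652 and 1530 CPM in replicate 2. All 4 IgE DNP samples lay above all samples of the other treatments, and both IgE and IgE DEX samples stayed under 1000 CPM. DNP raised Ero1l 3.59-fold (log2 fold change 1.84 ± 0.19, adjusted p = 6.21e-05). Pfkfb3 followed. Pfkfb3 stood at 42.2, 80.6, 207 and 254 CPM in replicate 1 of PEP+/+ BMMCs and at 29.5, 68.7, 233 and 337 CPM in replicate 2. Pfkfb3 in PEP-/- BMMCs was at 51.6, 115, 387 and 501 CPM in replicate 1 and at 34.4, 103, 289 and 397 CPM in replicate 2. Its 4 IgE DNP samples were all above the 4 IgE samples and below every sample with DEX. The increase by DNP was 2.30-fold (log2 fold change 1.20 ± 0.19, adjusted p = 0.00119).

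Hk2 encodes the inducible hexokinase, which binds mitochondria and commits glucose to the cell. Hk2 stood at 27.5, 48.3, 17.1 and 7.42 CPM in replicate 1 of PEP+/+ BMMCs and at 29.1, 58.2, 14.3 and 14.6 CPM in replicate 2. Hk2 in PEP-/- BMMCs was at 22.6, 30.4, 14.6 and 11.2 CPM in replicate 1 and at 21.9, 48.5, 11.6 and 12.4 CPM in replicate 2. The IgE DNP samples were the highest and did not overlap with those of any other treatment. DNP raised Hk2 1.83-fold (log2 fold change 0.87 ± 0.21, adjusted p = 0.0165), a call lost in 5 of the 16 fits that left out 1 sample, up to an adjusted p of 0.0834 without replicate 2 of PEP-/- IgE DNP. The constitutive isoenzyme Hk1 passed for DNP in neither fit. Hk1 stood at 404, 412, 374 and 342 CPM in replicate 1 of PEP+/+ BMMCs and at 312, 362, 288 and 364 CPM in replicate 2. Hk1 in PEP-/- BMMCs was at 414, 467, 435 and 431 CPM in replicate 1 and at 337, 395, 291 and 329 CPM in replicate 2. Its samples overlapped between all treatments. Hk3 had 13, 8, 7 and 2 reads in replicate 1 of PEP+/+ BMMCs and 1, 2, 1 and 4 reads in replicate 2. Hk3 in PEP-/- BMMCs had 2, 4, 3 and 1 reads in replicate 1 and 3, 3, 1 and 1 reads in replicate 2. Hk3, the hexokinase of granulocytes and monocytes, was thus close to the detection limit throughout.

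Slc16a3 encodes MCT4, the low-affinity lactate exporter of cells with high glycolytic rate. Slc16a3 stood at 51, 72.1, 29.3 and 53.4 CPM in replicate 1 of PEP+/+ BMMCs and at 45.5, 66.5, 24.4 and 45 CPM in replicate 2. Slc16a3 in PEP-/- BMMCs was at 45.8, 87.1, 29.1 and 54.3 CPM in replicate 1 and at 42.7, 59.4, 19.5 and 41.7 CPM in replicate 2. The IgE DNP samples lay above and the IgE DEX samples below those after IgE, without overlap. DNP raised Slc16a3 1.54-fold (log2 fold change 0.63 ± 0.17, adjusted p = 0.0304), and the call was lost without any 1 of 7 samples, up to an adjusted p of 0.122 without replicate 1 of PEP-/- IgE DNP. The partner exporter Slc16a1 (MCT1) was low. Slc16a1 stood at 20.5, 29.7, 13.2 and 12.2 CPM in replicate 1 of PEP+/+ BMMCs and at 14.7, 13.8, 4.54 and 8.18 CPM in replicate 2. Slc16a1 in PEP-/- BMMCs was at 7.74, 12.7, 8.5 and 14.1 CPM in replicate 1 and at 4.06, 7.04, 4.27 and 5.99 CPM in replicate 2. Its samples overlapped between treatments and differed most between sets and genotypes. Slc16a1 passed the test for DNP with the block alone (log2 fold change 0.53, adjusted p = 0.0249).

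The decreases concerned regulators. Vhl encodes the substrate receptor that marks the HIF-1 alpha subunit for degradation. Vhl stood at 58.8, 30.7, 51.7 and 41.7 CPM in replicate 1 of PEP+/+ BMMCs and at 40.5, 27.2, 34.3 and 27.4 CPM in replicate 2. Vhl in PEP-/- BMMCs was at 62.8, 32.2, 61.3 and 37.3 CPM in replicate 1 and at 42.7, 26.6, 43.1 and 25.1 CPM in replicate 2. Every IgE DNP sample was below every IgE sample. Vhl fell 1.75-fold after DNP (log2 fold change -0.81 ± 0.23, adjusted p = 0.0353), with the call lost without any 1 of 6 samples and an adjusted p of up to 0.134 without replicate 1 of PEP-/- IgE. Pdk2 encodes a kinase that shuts off pyruvate dehydrogenase. Pdk2 stood at 10.8, 5.2, 13.5 and 8.46 CPM in replicate 1 of PEP+/+ BMMCs and at 13.4, 9.68, 16.9 and 11.3 CPM in replicate 2. Pdk2 in PEP-/- BMMCs was at 14.2, 10, 18.3 and 11.5 CPM in replicate 1 and at 18.7, 11.1, 20.1 and 10.7 CPM in replicate 2. The IgE DNP samples were low, with a small overlap with those after IgE. Pdk2 fell 1.59-fold (log2 fold change -0.67 ± 0.21, adjusted p = 0.049), the least stable of these calls, since 15 of the 16 fits without 1 sample lost it, with an adjusted p of up to 0.176 without replicate 2 of PEP-/- IgE, and 4 other alternatives lost it too, up to 0.131 with only the compared conditions in the fit.

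With the block alone, 9 further genes passed for DNP. The glucose transporters gave a mixed picture. Slc2a3 stood at 217, 315, 175 and 211 CPM in replicate 1 of PEP+/+ BMMCs and at 118, 215, 84.7 and 166 CPM in replicate 2. Slc2a3 in PEP-/- BMMCs was at 258, 413, 201 and 355 CPM in replicate 1 and at 128, 208, 80.1 and 130 CPM in replicate 2. Within each set the high-affinity transporter Slc2a3 (GLUT3) was higher after IgE DNP than after IgE (log2 fold change 0.67, adjusted p = 0.0018 with the block), while the sets themselves lay far apart. Slc2a1 stood at 76.5, 104, 116 and 94.9 CPM in replicate 1 of PEP+/+ BMMCs and at 122, 118, 241 and 140 CPM in replicate 2. Slc2a1 in PEP-/- BMMCs was at 68.1, 100, 129 and 101 CPM in replicate 1 and at 139, 118, 262 and 131 CPM in replicate 2. The basal transporter Slc2a1 (GLUT1) did not pass for DNP in either fit, with a log2 fold change of 0.12. Hif1a, the regulated subunit of HIF-1, passed with the block (log2 fold change 0.37, adjusted p = 0.0147). Hif1a stood at 153, 196, 108 and 85.4 CPM in replicate 1 of PEP+/+ BMMCs and at 82.9, 95.1, 65.6 and 68 CPM in replicate 2. Hif1a in PEP-/- BMMCs was at 144, 186, 110 and 122 CPM in replicate 1 and at 82.9, 123, 58.7 and 60.2 CPM in replicate 2. In each genotype and set, the IgE DNP sample was above the IgE sample.

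Of the enzymes that act after phosphofructokinase, 3 were also among them, Aldoa (log2 fold change 0.41, adjusted p = 0.044), Tpi1 (0.30, adjusted p = 0.0384) and Pgam1 (0.36, adjusted p = 0.0463). Aldoa stood at 719, 962, 607 and 874 CPM in replicate 1 of PEP+/+ BMMCs and at 1410, 1920, 872 and 1150 CPM in replicate 2. Aldoa in PEP-/- BMMCs was at 984, 1270, 951 and 969 CPM in replicate 1 and at 1560, 2030, 939 and 1130 CPM in replicate 2. Aldoa varied more between sets than between IgE and IgE DNP. Pgam1 stood at 105, 128, 120 and 119 CPM in replicate 1 of PEP+/+ BMMCs and at 68.5, 72.2, 44.8 and 87.4 CPM in replicate 2. Pgam1 in PEP-/- BMMCs was at 92.6, 134, 78.4 and 122 CPM in replicate 1 and at 56.8, 78.5, 44 and 62.3 CPM in replicate 2. Pgam1, the phosphoglycerate mutase, was also ordered mainly by set. Of its 50-base windows, 41.5% also occur in other annotated genes, which makes its counts less certain. Pfkfb2 (log2 fold change -0.45, adjusted p = 0.0156) and Pfkfb4 (-0.48, adjusted p = 0.00158), the other PFKFB isoforms, passed as decreases with the block, and Pfkfb4 missed the threshold without it with an adjusted p of 0.0504. Pfkfb4 stood at 24.1, 17.2, 22.7 and 15.4 CPM in replicate 1 of PEP+/+ BMMCs and at 27.2, 21.4, 25.4 and 18.9 CPM in replicate 2. Pfkfb4 in PEP-/- BMMCs was at 30.3, 22.7, 23.7 and 18.7 CPM in replicate 1 and at 34.8, 22, 31.4 and 22.8 CPM in replicate 2. The 4 IgE DNP samples of Pfkfb4 lay below the 4 IgE samples.

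Egln3, an oxygen-sensing prolyl hydroxylase that HIF-1 induces, was counted by few reads. It was at 0.788 to 2.3 CPM after IgE DNP and at 0 to 0.104 CPM after IgE DEX. Egln3 thus passed the filter on low counts mainly through samples with DNP, in which it was high, and all its tests carry this limit. Egln3 had 12, 14, 0 and 8 reads in replicate 1 of PEP+/+ BMMCs and 3, 7, 1 and 11 reads in replicate 2. Egln3 in PEP-/- BMMCs had 3, 28, 2 and 16 reads in replicate 1 and 8, 27, 0 and 4 reads in replicate 2. The reads summed to 26 with IgE alone, 76 with DNP, 3 with DEX and 39 with both agents, and replicate 1 of PEP+/+ IgE held 12 of the 26. Per CPM the level after IgE DNP was 3.26 times that after IgE (95% exact Poisson interval 2.06 to 5.3, which covers counting error only), and the test passed with the block alone (adjusted p = 0.0049). Egln1 stood at 45, 38.7, 53.1 and 40.5 CPM in replicate 1 of PEP+/+ BMMCs and at 48.3, 37.6, 39.9 and 42.4 CPM in replicate 2. Egln1 in PEP-/- BMMCs was at 38.7, 37.6, 44.8 and 43.2 CPM in replicate 1 and at 41, 36.9, 38.3 and 36.9 CPM in replicate 2. Egln1, the main oxygen sensor of normal cells, passed in none of the 5 treatment comparisons with or without the block.

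**Figure D4:**
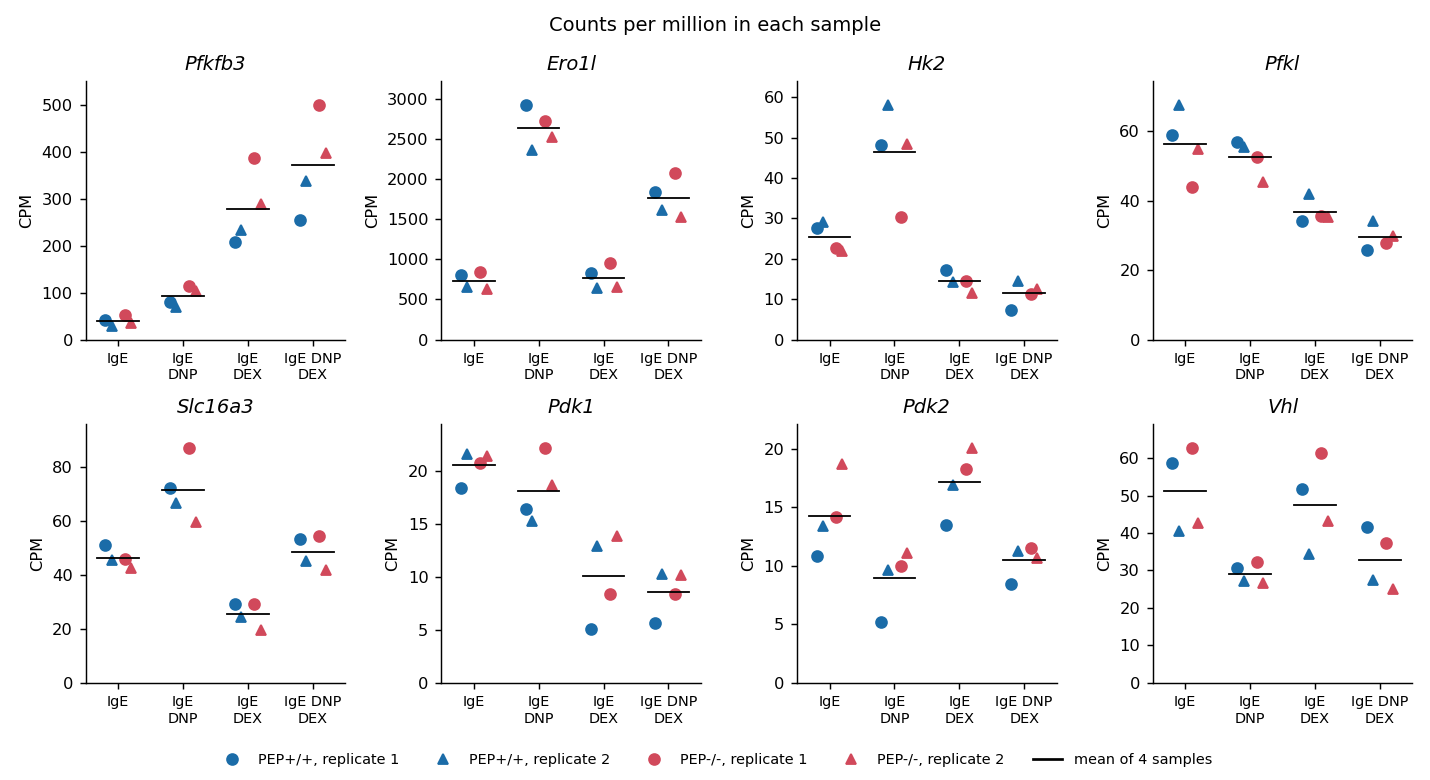
CPM of 8 genes in each of the 16 samples on linear axes from 0, by treatment, with genotype as colour, replicate as marker shape and the mean of 4 samples as a bar. Ero1l and Hk2 peak after IgE DNP, Pfkfb3 is highest after IgE DNP DEX, and Pfkl and Pdk1 are low after both treatments with DEX.

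The second comparison asks what DEX does in sensitized cells that saw no antigen. Pfkfb3 rose and Hk2, Pfkl, Slc16a3, Pdk1 and Egln3 fell. These 6 genes (18.2% of 33), 1 up and 5 down, compare with 9.37% of all genes, and with the block 17 changed, 4 up and 13 down, against 26.7%. The median log2 fold change was -0.2, with 7 of 33 genes above 0, and the median of all genes was 0.

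Pfkfb3 rose 6.95-fold (log2 fold change 2.80 ± 0.20, adjusted p = 5.86e-06), the largest increase among the 33 genes in this comparison, and its 4 IgE DEX samples lay between 207 and 387 CPM against 29.5 to 51.6 CPM after IgE. The other PFKFB isoforms differed from it. Pfkfb2 stood at 39.6, 32.1, 57.4 and 26.8 CPM in replicate 1 of PEP+/+ BMMCs and at 31.3, 23.1, 55.3 and 35.6 CPM in replicate 2. Pfkfb2 in PEP-/- BMMCs was at 43.3, 30.8, 54.1 and 49.7 CPM in replicate 1 and at 43.1, 28.9, 60.2 and 35.5 CPM in replicate 2. The 4 IgE DEX samples of Pfkfb2 were above the 4 IgE samples, and it passed as an increase with the block (log2 fold change 0.53, adjusted p = 0.00653). Pfkfb4 had a log2 fold change of -0.17 and passed in neither fit. Of the 50-base windows of Pfkfb2, 26.1% also occur in another annotated gene, against 0.61% for Pfkfb3, so the counts of Pfkfb2 are less certain.

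Pfkl, the liver-type phosphofructokinase, fell (log2 fold change -0.60 ± 0.14, adjusted p = 0.018). Pfkl stood at 58.8, 57, 34.2 and 25.9 CPM in replicate 1 of PEP+/+ BMMCs and at 67.7, 55.4, 42 and 34.2 CPM in replicate 2. Pfkl in PEP-/- BMMCs was at 43.8, 52.7, 35.7 and 27.8 CPM in replicate 1 and at 54.8, 45.3, 35.2 and 29.8 CPM in replicate 2. All 8 samples with DEX were below all 8 without it. The call at this comparison was lost in 5 of the 16 fits without 1 sample, with an adjusted p of up to 0.0857 without replicate 2 of PEP-/- IgE, and also without a count filter (adjusted p = 0.0701) and with only the compared conditions in the fit (0.0605). Pfkm stood at 21.2, 18.1, 12.5 and 9.24 CPM in replicate 1 of PEP+/+ BMMCs and at 16.3, 10.9, 15.1 and 9 CPM in replicate 2. Pfkm in PEP-/- BMMCs was at 24.1, 21.8, 19.5 and 15.6 CPM in replicate 1 and at 21.3, 12.9, 17.5 and 10.3 CPM in replicate 2. Pfkm, the muscle type, overlapped between IgE and IgE DEX. Pfkp stood at 119, 140, 122 and 103 CPM in replicate 1 of PEP+/+ BMMCs and at 156, 174, 119 and 153 CPM in replicate 2. Pfkp in PEP-/- BMMCs was at 85.7, 92.5, 86.6 and 91 CPM in replicate 1 and at 129, 161, 100 and 137 CPM in replicate 2. Pfkp, the platelet type, overlapped as well, and both passed in neither fit.

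Slc16a3 fell 1.81-fold (log2 fold change -0.85 ± 0.18, adjusted p = 0.00969), a call that only the fit without replicate 2 of PEP+/+ IgE DEX lost, at an adjusted p of 0.0518. Hk2 fell as well (log2 fold change -0.80 ± 0.22, adjusted p = 0.0377), with no overlap between the 4 IgE DEX and the 4 IgE samples, although omission of any 1 of these 8 samples ended the call, up to an adjusted p of 0.139 without replicate 2 of PEP-/- IgE DEX. Pdk1, the pyruvate dehydrogenase kinase that HIF-1 induces, fell (log2 fold change -1.03 ± 0.29, adjusted p = 0.0457). Pdk1 stood at 18.4, 16.4, 5.08 and 5.6 CPM in replicate 1 of PEP+/+ BMMCs and at 21.6, 15.3, 12.9 and 10.3 CPM in replicate 2. Pdk1 in PEP-/- BMMCs was at 20.8, 22.2, 8.4 and 8.37 CPM in replicate 1 and at 21.4, 18.7, 13.9 and 10.2 CPM in replicate 2. Samples with DEX lay between 5.08 and 13.9 CPM and those without it between 15.3 and 22.2 CPM. Without 1 sample the Pdk1 call was lost in 13 of 16 fits, up to an adjusted p of 0.178 without replicate 1 of PEP-/- IgE DEX, and it was 0.142 with only the compared conditions. Egln3 fell (adjusted p = 0.0239), and per CPM its level after IgE was 10.6 times that after IgE DEX (95% exact Poisson interval 3.26 to 54.9). The Egln3 call was lost in 5 of 16 fits without 1 sample, at adjusted p of 0.0522 to 0.118, the highest without replicate 1 of PEP+/+ IgE.

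With the block alone, 11 further genes passed for DEX in sensitized cells. Slc2a1 rose (log2 fold change 0.88, adjusted p = 0.000514), and within each genotype and set its IgE DEX sample exceeded its IgE sample, with 241 and 262 CPM in replicate 2. Slc2a3 had a log2 fold change of -0.41, adjusted p = 0.0381, the opposite sign. Some enzymes that act after phosphofructokinase fell, with Tpi1 (log2 fold change -0.65, adjusted p = 0.000497), Aldoc (-0.78, adjusted p = 0.00193), Eno1 (-0.61, adjusted p = 0.00873) and Aldoa (-0.48, adjusted p = 0.0492). Tpi1 stood at 375, 468, 251 and 369 CPM in replicate 1 of PEP+/+ BMMCs and at 612, 756, 367 and 402 CPM in replicate 2. Tpi1 in PEP-/- BMMCs was at 383, 503, 275 and 331 CPM in replicate 1 and at 533, 615, 318 and 445 CPM in replicate 2. All 4 IgE DEX samples of Tpi1 were below the 4 IgE samples. Aldoc stood at 64.5, 65.1, 47.8 and 45.2 CPM in replicate 1 of PEP+/+ BMMCs and at 108, 125, 71 and 81.4 CPM in replicate 2. Aldoc in PEP-/- BMMCs was at 129, 136, 68.1 and 74.1 CPM in replicate 1 and at 146, 170, 67.6 and 70.5 CPM in replicate 2. Aldoc, the aldolase of brain, ranged from 47.8 to 71 CPM after IgE DEX and from 64.5 to 146 CPM after IgE. Eno1 stood at 342, 432, 314 and 319 CPM in replicate 1 of PEP+/+ BMMCs and at 686, 752, 397 and 463 CPM in replicate 2. Eno1 in PEP-/- BMMCs was at 432, 511, 331 and 348 CPM in replicate 1 and at 631, 673, 327 and 371 CPM in replicate 2. Eno1, the main enolase, overlapped between these treatments, and 72.2% of its 50-base windows also occur in other annotated genes, mostly processed copies, which makes its counts uncertain. Hif1a also passed with the block as a decrease (log2 fold change -0.44, adjusted p = 0.00932).

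The third comparison asks what DEX does once antigen is present, IgE DNP DEX against IgE DNP. Pfkfb3 rose and Hk2, Pfkl and Pdk1 fell. These 4 of 33 genes (12.1%) stood against 10.7% of all genes, a share near the background. With the block 18 changed, 2 up and 16 down, against 33.3% of all genes. The median log2 fold change was -0.32, with 7 genes above 0, and that of all genes -0.01.

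Hk2 fell 4.00-fold (log2 fold change -2.00 ± 0.22, adjusted p = 0.000187), from 30.4 to 58.2 CPM after IgE DNP to 7.42 to 14.6 CPM after IgE DNP DEX. Pfkfb3 rose 4.04-fold (log2 fold change 2.01 ± 0.19, adjusted p = 6.18e-05), the opposite direction. Hk1, which held most of the hexokinase transcript, passed in neither fit. Pfkl fell 1.78-fold (log2 fold change -0.83 ± 0.14, adjusted p = 0.00313), and none of its 16 fits without 1 sample lost the call. Pdk1 fell 2.08-fold (log2 fold change -1.06 ± 0.29, adjusted p = 0.041), lost in 11 of 16 such fits, up to an adjusted p of 0.154 without replicate 1 of PEP+/+ IgE DNP DEX.

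With the block alone, 13 of the 14 further genes were lower with DEX. Hif1a had a log2 fold change of -0.84, adjusted p = 6.59e-05, Ero1l of -0.58, adjusted p = 0.00046, Slc16a3 of -0.55, adjusted p = 0.000732, Tpi1 of -0.60, adjusted p = 0.000979, Aldoc of -0.83, adjusted p = 0.00121 and Eno1 of -0.66, adjusted p = 0.0035. For Ero1l, Slc16a3, Tpi1, Pdk3 and Mxi1 the 4 IgE DNP DEX samples lay below the 4 IgE DNP samples. Mxi1 stood at 12.6, 11.2, 5.86 and 6.9 CPM in replicate 1 of PEP+/+ BMMCs and at 6.51, 9.11, 6.98 and 7.87 CPM in replicate 2. Mxi1 in PEP-/- BMMCs was at 15.7, 13.7, 10.9 and 7.82 CPM in replicate 1 and at 8.69, 10, 7.93 and 6.09 CPM in replicate 2. Mxi1, an antagonist of MYC that HIF-1 induces, was low throughout and passed with the block (log2 fold change -0.61, adjusted p = 0.0294). Pdk3 stood at 47.9, 52, 46.3 and 45.2 CPM in replicate 1 of PEP+/+ BMMCs and at 52.6, 49.8, 35.8 and 38.7 CPM in replicate 2. Pdk3 in PEP-/- BMMCs was at 47.5, 57.5, 43.7 and 42.2 CPM in replicate 1 and at 43.1, 45.8, 30.8 and 32 CPM in replicate 2. Pdk3, the leading pyruvate dehydrogenase kinase, differed by less (log2 fold change -0.38, adjusted p = 0.013 with the block). Gpi1, the glucose phosphate isomerase, was the exception with a log2 fold change of 0.32, adjusted p = 0.0467.

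**Figure D5:**
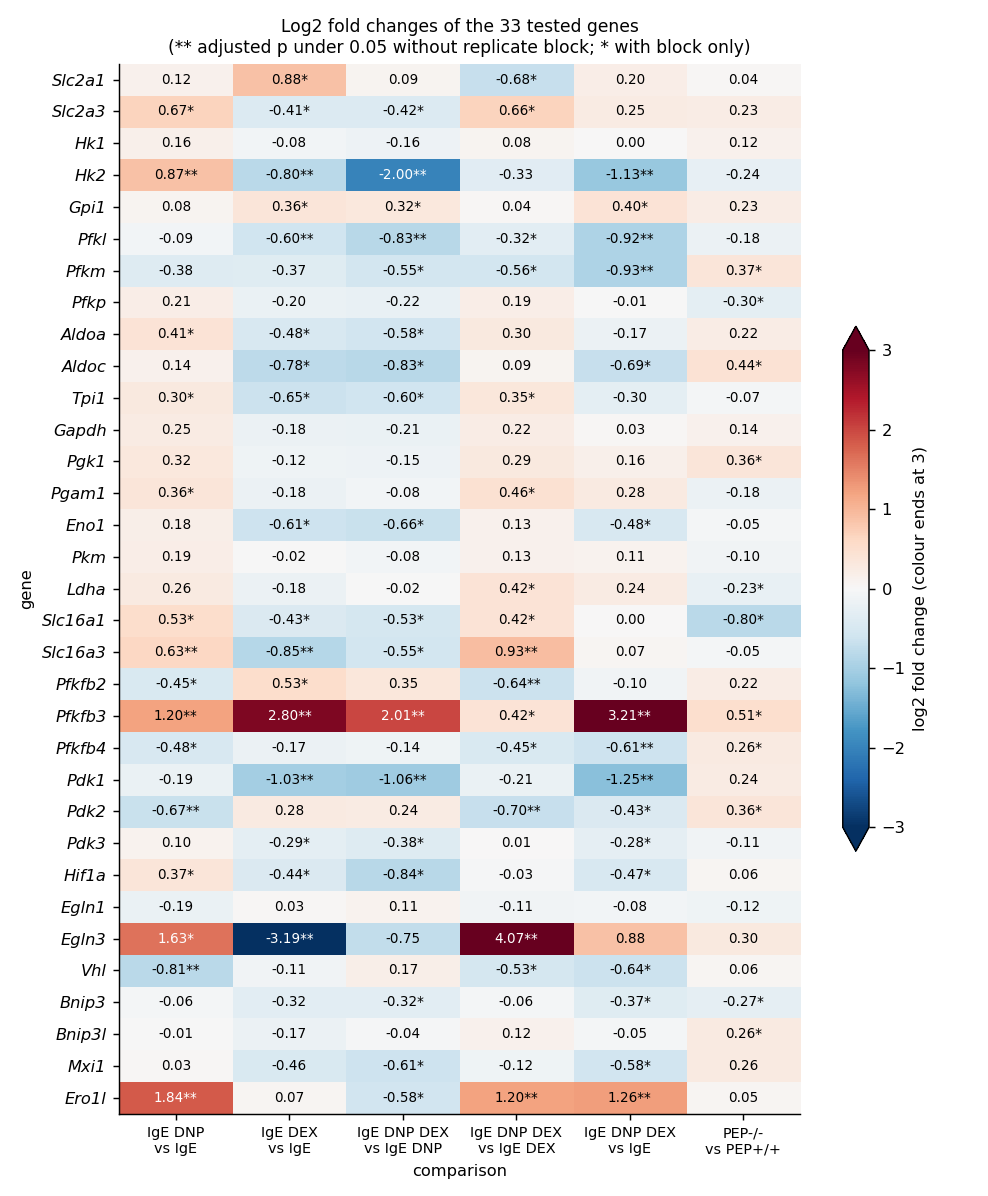
Log2 fold changes of the 33 tested genes in the treatment and genotype comparisons as colours, blue for lower and red for higher, with the colour scale ending at 3. Double stars mark an adjusted p under 0.05 without the replicate block and single stars one with the block alone; Pfkfb3 carries double stars in 4 of the 5 treatment comparisons.

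The fourth comparison asks whether antigen still acts under DEX, IgE DNP DEX against IgE DEX. Ero1l, Slc16a3 and Egln3 rose and Pfkfb2 and Pdk2 fell. These 5 of 33 genes (15.2%) compare with 12.6% of all genes, and with the block 16 changed, 9 up and 7 down, against 37.6%. The median log2 fold change was 0.09, with 20 genes above 0, and that of all genes -0.02.

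Ero1l rose 2.29-fold (log2 fold change 1.20 ± 0.19, adjusted p = 0.00166) and Slc16a3 1.90-fold (log2 fold change 0.93 ± 0.18, adjusted p = 0.0057), in both cases without overlap between the 4 samples of each treatment. The rise of Slc16a3 brought it to 41.7 to 54.3 CPM, which overlaps the 42.7 to 51 CPM after IgE alone. Egln3 rose from 3 to 39 reads (adjusted p = 0.00475), a ratio per CPM of 18.9 with a 95% exact Poisson interval of 6 to 95.5. The filter on low counts had kept Egln3 mainly through samples with DNP, so this test is not independent of the filter. Pfkfb2 fell 1.55-fold (log2 fold change -0.64 ± 0.16, adjusted p = 0.0269), lost in 6 of 16 fits without 1 sample, with an adjusted p of up to 0.129 without replicate 2 of PEP-/- IgE DNP DEX, and with only the compared conditions (0.0756). Pdk2 fell 1.63-fold (log2 fold change -0.70 ± 0.21, adjusted p = 0.0471), lost in 14 such fits, with an adjusted p of up to 0.172 without replicate 1 of PEP+/+ IgE DNP DEX, and under 3 other alternatives, up to 0.0778 without a count filter. Hk2, which antigen raised in cells without DEX, had a log2 fold change of -0.33 under DEX and passed in neither fit, with overlapping samples.

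With the block alone, 11 further genes passed for DNP under DEX. Ldha, which makes lactate, had a log2 fold change of 0.42, adjusted p = 0.00497. Ldha stood at 990, 1210, 970 and 1400 CPM in replicate 1 of PEP+/+ BMMCs and at 1310, 1480, 1010 and 1340 CPM in replicate 2. Ldha in PEP-/- BMMCs was at 887, 1160, 870 and 1040 CPM in replicate 1 and at 1040, 1200, 878 and 1220 CPM in replicate 2. Its 4 IgE DNP DEX samples were above the 4 IgE DEX samples. Slc2a1 fell (log2 fold change -0.68, adjusted p = 0.00489) and Slc2a3 rose (0.66, adjusted p = 0.00204), again with opposite signs. Pfkfb3 passed as an increase (log2 fold change 0.42, adjusted p = 0.0289), Vhl (-0.53, adjusted p = 0.000625), Pfkm (-0.56, adjusted p = 0.0134) and Pfkfb4 (-0.45, adjusted p = 0.00322) as decreases.

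Cells that received both agents were also compared with IgE BMMCs, which share the samples of the comparisons above. Here 7 of 33 genes (21.2%) changed, against 22.8% of all genes, and 16 with the block, 3 up and 13 down, against 48.6%, so neither share exceeded the background. The median log2 fold change was -0.08, with 12 genes above 0. Pfkfb3 was 9.28-fold higher (log2 fold change 3.21 ± 0.20, adjusted p = 1.45e-06) and Ero1l 2.40-fold higher (log2 fold change 1.26 ± 0.19, adjusted p = 0.00063). Lower were Hk2 by 2.19-fold (log2 fold change -1.13 ± 0.22, adjusted p = 0.00338), Pfkl by 1.90-fold (log2 fold change -0.92 ± 0.14, adjusted p = 0.000757), Pdk1 by 2.38-fold (log2 fold change -1.25 ± 0.29, adjusted p = 0.0102), Pfkm by 1.90-fold (log2 fold change -0.93 ± 0.23, adjusted p = 0.0126) and Pfkfb4 by 1.53-fold (log2 fold change -0.61 ± 0.15, adjusted p = 0.0127). The last 2 calls depended on single samples. Pfkm was lost without replicate 1 of PEP+/+ IgE (adjusted p = 0.0528) and without replicate 2 of PEP-/- IgE DNP DEX (0.0578), and Pfkfb4 in 3 fits, up to 0.0605 without replicate 1 of PEP-/- IgE DNP DEX, and also without a count filter (0.0582). With the block, Hif1a (log2 fold change -0.47, adjusted p = 0.00452), Vhl (-0.64, adjusted p = 7.41e-05), Mxi1 (-0.58, adjusted p = 0.032) and Aldoc (-0.69, adjusted p = 0.00255) were among the further decreases. Mxi1 was lower in only 3 of the 4 differences within genotype and set.

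Among the 33 tested genes, 7 passed in none of these 5 treatment comparisons in either fit, with log2 fold changes between -0.22 and 0.32. They were Hk1, Pfkp, Gapdh, Pgk1, Pkm, Egln1 and Bnip3l. Gapdh ranged from 1070 to 1740 CPM after IgE and from 1280 to 2130 CPM after IgE DNP, and Pkm from 789 to 1740 and from 974 to 2000 CPM. In Gapdh 27.2% and in Pkm 34.4% of the 50-base windows also occur in other annotated genes. The share is 23.4% in Bnip3l and 21.9% in Bnip3. Bnip3l spanned 64.5 to 99.8 CPM over all samples. Gpi1 passed in the 3 comparisons that involve DEX against its absence, with the block alone, and ranged from 333 to 664 CPM after IgE and from 588 to 779 CPM after IgE DNP DEX. Bnip3, a mitophagy receptor that HIF-1 induces, passed as a decrease with the block in 2 comparisons, with 33.4 to 43.5 CPM after IgE and 22.1 to 37.2 CPM after IgE DNP DEX.

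Whether DEX altered the response to DNP was tested as the difference between the responses. Without the block 0 of 33 genes passed in edgeR, against 0.331% of all genes, with 4 at an unadjusted p under 0.05. With the block 2 passed, against 1.57% of all genes, and DESeq2 passed 1. Hk2 was among them, with an interaction of -1.20 ± 0.30 on the log2 scale and adjusted p of 0.303 without the block, 0.0222 with it and 0.0454 in DESeq2. Its response to DNP was 0.87 without DEX and -0.33 with DEX. Ero1l was the other, with an interaction of -0.65 (adjusted p = 1 without and 0.0314 with the block), its responses being 1.84 and 1.20.

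The genotypes were compared as the mean over the 4 treatments, 8 samples against 8. The 4 samples of a genotype within a set may share a culture, so the 8 pairs may not be independent. The block removes a difference between the sets but not one between the genotypes' cultures within a set. In edgeR without the block 0 of 33 genes passed, against 1.59% of all genes, with 9 at an unadjusted p under 0.05, while DESeq2 passed 1. With the block 11 passed, 7 higher and 4 lower in PEP-/- BMMCs, against 17.4% of all genes. The median log2 fold change of the 33 genes was 0.06, and that of all genes 0.02.

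Pfkfb3 was higher in PEP-/- than in PEP+/+ BMMCs in each of the 8 pairs of the same treatment and set (log2 fold change 0.51 ± 0.13, adjusted p = 0.084 without and 0.00452 with the block), and DESeq2 gave an adjusted p of 0.0113. Slc16a1 was lower in 7 of 8 pairs (log2 fold change -0.80 ± 0.31, adjusted p = 0.259 without and 0.00038 with the block), the exception being replicate 1 after IgE DNP DEX. Aldoc was higher in 6 of 8 pairs (log2 fold change 0.44 ± 0.18, adjusted p = 0.302 without and 0.00866 with the block). Pgk1 stood at 212, 295, 218 and 312 CPM in replicate 1 of PEP+/+ BMMCs and at 232, 261, 186 and 229 CPM in replicate 2. Pgk1 in PEP-/- BMMCs was at 336, 429, 352 and 404 CPM in replicate 1 and at 259, 309, 199 and 209 CPM in replicate 2. Pgk1 was higher in 7 of 8 pairs (log2 fold change 0.36, adjusted p = 0.0379 with the block), with 68% of its 50-base windows also in other annotated genes. Pfkm, Pfkfb4 and Bnip3l, a receptor for removal of mitochondria, were higher in all 8 pairs, and Pfkp and Ldha lower in all 8, by log2 fold changes of 0.37, 0.26, 0.26, -0.30 and -0.23. Pdk2 was higher in 7 pairs and Bnip3 lower in 6. On the log2 scale the mean difference was 0.67 in the numbered and 0.34 in the lettered set for Pfkfb3. It was -0.76 and -0.83 for Slc16a1, 0.82 and 0.15 for Aldoc and 0.57 and 0.09 for Pgk1. An effect of PEP and a difference between cultures cannot be told apart here.

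Whether the genotypes responded differently to the treatments was tested for DNP and DEX in sensitized cells and for DEX in activated cells. In edgeR 0 of 33 genes passed in any of the 3 tests, with or without the block, as did 0% of all genes. At an unadjusted p under 0.05, edgeR without the block and DESeq2 at its adjusted threshold gave 0 genes each time, and the block gave 0 for DNP and 1 each for DEX in activated and in sensitized cells. The differences between the responses ran from -0.17 to 1.53 on the log2 scale for DNP, from -0.85 to 1.13 for DEX in activated cells and from -0.48 to 1.84 for DEX in sensitized cells, with Egln3 at the upper end of the first and the last.

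Related pathways were described by lists of further genes, whose counts stand beside the shares of all genes tested (DNP 16.7%, DEX in sensitized cells 9.37%, and 37.9% and 26.7% with the block). Of the other genes of glycolysis and pyruvate entry, 25 of 36 were tested and 2 (8%) rose with DNP, below the 16.7% of all genes. These were Pdp1, the phosphatase that reactivates pyruvate dehydrogenase (log2 fold change 1.44 ± 0.15, adjusted p = 8.01e-05), and Eno2, the neuronal enolase (log2 fold change 1.43 ± 0.38, adjusted p = 0.0261). DEX in sensitized cells raised 2 (8% against 9.37%), the intracellular transporter Slc2a8 from a mean of 7.18 to 52.3 CPM (log2 fold change 2.86 ± 0.17, adjusted p = 2.13e-06) and the D-lactate dehydrogenase Ldhd from 0.388 to 14.8 CPM (log2 fold change 5.29 ± 0.71, adjusted p = 0.000627). Ldhd passed the filter on low counts through the samples with DEX. With the block the counts were 9 (36%) and 5 (20%), against 37.9% and 26.7% of all genes.

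All 10 genes of the pentose phosphate pathway were tested, with 1 decrease by DNP (10% against 16.7% of all genes), H6pd (log2 fold change -0.88 ± 0.26, adjusted p = 0.0374), and 3 changes by DEX in sensitized cells (30% against 9.37%). There Prps2 rose by 1.01 on the log2 scale while Rpia and G6pdx had log2 fold changes of -0.81 and -0.42. Of 19 citric acid cycle genes 2 (10.5%) rose with DNP, Dlst and Mdh2 (log2 fold changes 0.46 and 0.38), and 3 (15.8%) changed with DEX, among them the mitochondrial Idh2 with -0.93 and Idh3g with 0.54. With the block the counts for DNP and DEX were 1 (10%) and 4 (40%) for the pentose pathway and 4 (21.1%) and 7 (36.8%) for the cycle, against 37.9% and 26.7% of all genes. Of the glycogen and gluconeogenesis genes, 14 of 19 were tested and 4 (28.6% against 16.7% of all genes) changed with DNP, including the glycogen-targeting subunits Ppp1r3g (log2 fold change -4.34 ± 0.71, adjusted p = 0.00156) and Ppp1r3b (log2 fold change 1.05 ± 0.26, adjusted p = 0.0164) of protein phosphatase 1. Ppp1r3g passed the filter on low counts through the samples without DNP. DEX in activated cells, which changed 10.7% of all genes, lowered Gys1, the glycogen synthase (log2 fold change -0.96 ± 0.20, adjusted p = 0.0101). The counts of this list with the block and for DEX in sensitized cells are not given here. Gys1 and Gbe1 also stand in the list of other HIF targets below.

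The other HIF pathway genes numbered 13 tested of 15, with 2 changes by DNP and 2 by DEX in sensitized cells, 15.4% each against 16.7% and 9.37% of all genes. With the block 5 (38.5%) and 3 (23.1%) changed, against 37.9% and 26.7%. Cited2, which competes with HIF-1 for the coactivators p300 and CBP, fell with DNP from a mean of 320 to 137 CPM (log2 fold change -1.23 ± 0.12, adjusted p = 3.13e-05) and rose with DEX to 1040 CPM (log2 fold change 1.70 ± 0.12, adjusted p = 4.42e-06). Hif3a, whose products can inhibit HIF-1, had 0 to 1 reads per sample after IgE and 12 to 29 after IgE DEX (adjusted p = 0.00893). Hif3a passed the filter on low counts through these IgE DEX samples, so its test is not independent of the filter. Siah2, a ligase for the prolyl hydroxylases, rose with DNP (log2 fold change 0.96 ± 0.15, adjusted p = 0.00108).

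Other HIF targets moved in both directions, with 8 of 30 tested genes changed by DNP (5 up, 3 down) and 8 by DEX in sensitized cells (6 up, 2 down), 26.7% each against 16.7% and 9.37% of all genes. With the block the counts were 16 (53.3%) and 14 (46.7%), against 37.9% and 26.7%. Ndrg1 rose with DNP from a mean of 95.9 to 1270 CPM (log2 fold change 3.74 ± 0.22, adjusted p = 1.09e-06). Ddit4, an inhibitor of mTORC1, fell with DNP from 142 to 25.8 CPM (log2 fold change -2.47 ± 0.13, adjusted p = 5.02e-07) and rose with DEX to 585 CPM (log2 fold change 2.03 ± 0.13, adjusted p = 2.41e-06). Cxcr4 rose with DEX from 1.67 to 41.1 CPM (log2 fold change 4.60 ± 0.29, adjusted p = 2.31e-06), and Angptl4 fell (log2 fold change -3.11 ± 0.29, adjusted p = 4.85e-05). The difference between the responses to DNP with and without DEX passed without the block for targets that include Angptl4 (log2 fold change 2.43 ± 0.39, adjusted p = 0.0276) and Ddit4 (log2 fold change 1.11 ± 0.18, adjusted p = 0.0276). Of all genes 0.331% passed this test. Between genotypes, 2 of the 30 tested targets were lower in PEP-/- BMMCs, Car12 (log2 fold change -1.67 ± 0.34, adjusted p = 0.0355) and Tfrc (log2 fold change -0.89 ± 0.16, adjusted p = 0.0238). Of all genes 1.59% changed between genotypes without the block, and 1.16% were lower.

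Of the regulators that sense glucose or nutrients, 22 of 24 were tested, with 7 changes by DNP (5 up, 2 down; 31.8% against 16.7% of all genes) and 3 increases by DEX in sensitized cells (13.6% against 9.37%). With the block the counts were 12 (54.5%) and 5 (22.7%), against 37.9% and 26.7%. DNP raised Mycn (log2 fold change 2.86 ± 0.29, adjusted p = 4.97e-05), Myc (log2 fold change 1.55 ± 0.25, adjusted p = 0.00149) and the mTORC1 activator Rheb (log2 fold change 1.07 ± 0.21, adjusted p = 0.00498), and lowered Txnip, which restrains glucose uptake (log2 fold change -0.72 ± 0.17, adjusted p = 0.0112). DEX raised Txnip (log2 fold change 0.75 ± 0.17, adjusted p = 0.0135) and Mlxip, a partner in carbohydrate-responsive transcription (log2 fold change 1.08 ± 0.21, adjusted p = 0.00759).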

How the data were processed

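RNA from 16 BMMC samples was measured by sequencing of a stranded mRNA library with paired reads of 50 bases. TopHat2 alignment to GRCm38 and HTSeq counting were done by the authors, who deposited raw counts per gene, whole numbers without normalization. The strand setting of the counting is not given in the sources used here, so overlapping genes on opposite strands, such as Hk1, Slc2a1, Pfkp, Hif1a and Mxi1 with their neighbours, are uncertain. The rows that name no gene took 29.1% to 49.6% of each file and were left out of library sizes. Reads with several alignments were counted on no gene.

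Groups came from the labels. Gene names and exon lengths came from GENCODE M21 on GRCm38, with the merged exons as length. Counts were scaled with TMM factors. The quasi-likelihood functions glmQLFit and glmQLFTest of edgeR 4.0.16 (R 4.3.3) were used with 1 mean for each of the 8 conditions over all 16 samples. Of 39179 genes, 13305 passed the filterByExpr filter at 10 counts. The threshold was 0.05 on the p-value after Benjamini-Hochberg adjustment over these genes. The replicate block added the set (titles with a number or a letter) to the fit. Deviations from the condition means correlated between conditions within a set at 0.453 to 0.799 in all 28 pairs of conditions, so the block was given beside each result whose call it changed. The numbering in the titles is the source of this pairing. The alternatives were the block, DESeq2 1.42.0, DESeq2's size factors, no filter, a fit restricted to the compared conditions, 10 or more counts in every sample, and each sample left out. The script was tested on simulated data. Members and lists were chosen with earlier results of these data known. Named genes of the other lists were up to 3 with the largest change among those that passed in a comparison, and 1 gene that met this rule is not reported here. Genes of the 35 were given in every sample if they passed in a comparison, or among the 6 largest changes that passed with the block alone, together with their isoenzymes. Exact Poisson intervals have a level of 95% and cover counting error only.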

Additional observations from a re-analysis of the deposited data

Results flagged for a closer look

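Slc16a1, the lactate and pyruvate transporter MCT1, was lower with DEX in both replicates of sensitized PEP+/+ BMMCs and close to its level without DEX, with differences of the opposite sign, in both of PEP-/- BMMCs. The log2 difference between IgE DEX and IgE was -0.63 in replicate 1 and -1.66 in replicate 2 of PEP+/+ BMMCs, and 0.13 and 0.07 in PEP-/- BMMCs. The difference between the genotypes was 1.14 on the log2 scale. Tested as an interaction in edgeR it had an adjusted p of 1 without and with the replicate block, so the difference did not pass the test. The PEP-/- samples of this gene held 4.06 to 8.5 CPM after these treatments.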

How the results depend on the processing

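The replicate block raised the number of members called to 15 for DNP, 17 for DEX in sensitized cells, 18 for DEX in activated cells, 16 for DNP under DEX, 16 for both agents against IgE, 2 for the interaction of DNP and DEX and 11 between genotypes. DESeq2 gave 7 for DNP, 8 for DEX in sensitized cells, 7 for DEX in activated cells and 6 for DNP under DEX. It gave 7 for both agents against IgE, 1 for the interaction and 1 between genotypes. Without a filter there were 7 for DEX in activated cells and 2 between genotypes. With at least 10 counts in every sample, and with only the compared conditions, DNP under DEX had 3. Egln3, with 0 reads in its lowest samples, was not tested at 10 or more counts in every sample. Omission of 1 sample left 2 to 5 calls for DNP, 2 to 6 for DEX in sensitized cells, 3 to 5 for DEX in activated cells, 3 to 5 for DNP under DEX, 6 to 8 for both agents, and 0 elsewhere. The cause of these differences was not tested. No alternative turned the direction of a called value. Of the 28 calls of single members without the block, 14 were kept in each of the 16 omissions, among them all those of Pfkfb3 and Ero1l. The fit with only the compared conditions was not run for the interaction and the genotype average, which use all conditions. With DESeq2's size factors the same 10 genes were highest per kilobase, and with the length of the longest transcript 9 of them were. With that length their order changed, with Pkm above Gapdh and Ero1l. Fewer than 40 reads stood behind each treatment sum of Egln3 except after IgE DNP, and Hk3 and Ldhb were too low to test.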
